A study of Mus musculus with 10 samples.

Results

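This account covers 10 genes of the conventional neuronal release machinery, chosen by symbol from the 34590 genes counted in each library: *Snap25* and *Stx1a*, *Vamp1* and *Vamp2*, *Syt1*, *Syt2* and *Syt7*, *Cplx1* and *Cplx2*, and *Syp*. All 10 were listed in every library and all 10 passed the filter on low counts that left 16891 genes to test. The last of them, *Syp*, encodes synaptophysin, a membrane protein of synaptic vesicles that is neither a SNARE protein, a synaptotagmin nor a complexin.

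Gene expression was measured by bulk RNA-seq of fluorescent cells handpicked from mouse cochleae, in 2 libraries of each of 5 cell types. Supporting cells (SCs, P26 and P27) carried Fgfr3iCreER and a tdTomato reporter behind a floxed stop at Rosa26. Converted hair cells (cHCs, P33) carried the same 2 alleles together with the Atoh1-HA transgene and the alpha9 AChR-EGFP reporter, and were picked for red and green fluorescence. Both groups received tamoxifen, and the driver acts mainly in Deiters' cells and pillar cells. Outer hair cells at P7 and mature outer hair cells, here OHCs (P22), are labelled as heterozygous prestin-YFP knock-in cells. For the P7 cells, however, the supplement of the study gives a Prestin-CreERT2 driver with tdTomato, induced by tamoxifen. The main text of the study gives P22 for the mature cells, whose titles hold the age numbers 21 and 22. Mature inner hair cells (IHCs, P74 and P75) carried Pval-Cre and a tdTomato reporter. Their titles name the reporter line Ai9, whereas the methods of the study name a different tdTomato line. The cHCs therefore differ from the native hair cells in genotype as well as in origin, and age differs among all groups.

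In neurons, a vesicle SNARE protein (synaptobrevin, encoded by *Vamp1* and *Vamp2*) zips together with SNAP25 and syntaxin 1 of the plasma membrane, and this pulls the vesicle onto the membrane. Synaptotagmins sense the calcium that enters through nearby channels, and complexins bind the assembled SNARE complex and hold or promote fusion. Hair cells release glutamate from ribbon synapses, where otoferlin, a large protein with C2 domains encoded by *Otof*, is required for calcium-triggered release, and the part played by the neuronal SNARE proteins and synaptotagmins in mature hair cells has been debated. Spiral ganglion neurites and efferent endings contact these cells and use the neuronal machinery themselves.

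The libraries held 15016129 to 40518766 counts on genes, so that 3 counts corresponded to 0.0740 to 0.200 CPM (counts scaled to a common library size) before TMM scaling. Libraries are called here by the numbers in their titles, 11 to 16 for the SCs, cHCs and OHCs (P7), and by the codes m21 and f22 for the OHCs (P22) and m74 and m75 for the IHCs, which bear a separate range of library numbers. A difference across the 2 ranges cannot be told apart from one between cell types. OHC (P22) library m21 stood apart by a TMM factor of 0.583. The share of its reads outside annotated genes, 61.8%, was close to the 59.6% of library f22. Library m21 also had fewer genes with a count than any other library, 14332 against 16948 in library f22. Its 10 highest genes held 41.3% of its counts, against 22.8% in library f22. The outer and inner hair cell labels fitted *Slc26a5*, encoding prestin, and *Slc17a8*. *Slc26a5* was at 1061 and 1094 CPM in the OHCs (P7) and at 3789 and 2749 CPM in the OHCs (P22). In the IHCs it was at 1.31 and 0.859 CPM, and *Slc17a8* was at 1907 and 1763 CPM. *Slc26a5* was also at 97.6 and 23.4 CPM in the cHCs, against 0.755 and 0.531 CPM in the SCs. Another outer hair cell marker, *Ocm*, was at 239 and 68.6 CPM in the IHCs, and at 3160 CPM or more in the OHCs. Supporting cell genes were also counted outside the SCs. The 12 genes of that list summed to 9120 and 13316 CPM in the SCs, to 3390 and 1319 CPM in the cHCs and to 2457 and 2106 CPM in the IHCs, against 334 to 1170 CPM in the OHC libraries. *S100a1* alone gave 7255 and 10808 CPM in the SCs, 2057 and 431 CPM in the cHCs and 1233 and 1079 CPM in the IHCs. Single genes went in different directions. In the IHCs, *Gjb2* was at 611 and 468 CPM against 124 and 393 CPM in the SCs, and *Sox9* at 96.0 and 64.5 CPM against 402 and 242 CPM. In the cHCs, *Fgfr3* was at 458 and 431 CPM against 167 and 312 CPM in the SCs, and *Hes1* at 12.7 and 9.75 CPM against 83.3 and 195 CPM.

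*Snap25* was the one member that was called higher than in SCs in all 4 hair cell types, and no difference in it was called between converted and native hair cells. *Snap25* (chr2:136539189-136608164, plus strand, mm9) encodes the plasma membrane SNARE protein that gives 2 of the helices of the complex. Its level was 1.11 and 0.637 CPM in the SCs, 125 and 361 CPM in the cHCs, 348 and 241 CPM in the OHCs (P7), 270.0 and 208 CPM in the OHCs (P22), and 219 and 308 CPM in the IHCs. The lowest of the 8 hair cell libraries, at 125 CPM, lay far above both SC libraries, and the 4 hair cell types overlapped one another.

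Against SCs, *Snap25* rose by 8.12 ± 0.81 (log2 fold change ± SE, n = 2 per cell type) in cHCs, an FDR of 0.000319 by edgeR's quasi-likelihood test. The rises in OHCs (P7), OHCs (P22) and IHCs were 8.40 ± 0.82, 8.10 ± 0.81 and 8.24 ± 0.81, with edgeR FDRs of 0.000214, 0.000201 and 0.000268. None of the comparisons among hair cell types passed the test for this gene. The difference between OHCs (P22) and cHCs was -0.02 (95% interval -1.32 to 1.27), and that between IHCs and cHCs was 0.12 (-1.18 to 1.41). These intervals leave room for differences of more than 2-fold either way. The 4 rises from SCs passed under each alternative in which every library kept its own sample, with FDRs up to 0.0269. Within the libraries numbered 11 to 16 alone, the rise in cHCs was 8.19 (edgeR FDR of 0.00421).

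Markers of neurons moved with *Snap25* in part. The 16 listed genes of the spiral ganglion and neuron list summed to 0.239 and 1.42 CPM in the SCs, 92.9 and 193 CPM in the cHCs, 83.6 to 204 CPM in the OHCs and 590 and 681 CPM in the IHCs, and 3 of them (*Nefl*, *Nefm* and *Ntrk2*) passed the joint test described below. Of the neurofilament genes, *Nefl* was at 115 and 358 CPM in the IHCs, 104 and 67.0 CPM in the OHCs (P7), 19.0 and 33.1 CPM in the OHCs (P22), and at most 0.533 CPM in the cHCs and SCs. *Nefm* was at 66.2 and 105 CPM in the cHCs, 86.3 and 111 CPM in the OHCs (P7) and 96.5 and 39.2 CPM in the OHCs (P22). It was at 163 and 94.7 CPM in the IHCs and at most 0.400 CPM in the SCs. *Nefh* was at 80.7 and 72.9 CPM in the IHCs and lower in all other libraries. The neurotrophin receptor gene *Ntrk2* was at 145 and 126 CPM in the IHCs and at most 10.1 CPM elsewhere. In the cHCs, *Rbfox3*, encoding the neuronal nuclear antigen NeuN, was at 24.7 and 44.8 CPM and *Elavl4* was at 30.3 CPM in library 16. *Stmn2* was at 18.6 CPM in IHC library m74. Other neuronal markers were low, since *Prph* had no count in any library and *Tubb3*, *Gap43* and *Thy1* did not exceed 1.68, 0.441 and 5.29 CPM. *Slc17a7*, the vesicular glutamate transporter of many neurons, was at 35.8 and 2.92 CPM in the IHCs and at most 1.68 CPM elsewhere. The efferent markers *Chat* and *Slc5a7* together summed to 0.0531 CPM or less in every library. In bulk samples, a change in the share of cells of a type and a change in RNA per cell cannot be told apart, and the part of neurites in these levels was not tested.

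*Stx1a* (chr5:135499352-135526970, plus strand), encoding syntaxin 1A, the plasma membrane partner of SNAP25, was low and variable. Its levels were 0.222 and 12.4 CPM in SCs, 4.51 and 16.9 CPM in cHCs, 11.1 and 1.09 CPM in OHCs (P7), 0.176 and 1.39 CPM in OHCs (P22), and 1.95 and 0 CPM in IHCs. The 2 libraries of each cell type differed several-fold and the groups overlapped, so that the joint test of all 5 cell types gave an edgeR FDR of 0.705. The 0 in IHC library m75 allows at most 0.113 CPM (3 counts) before scaling, from counting error alone.

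**Figure D1:**
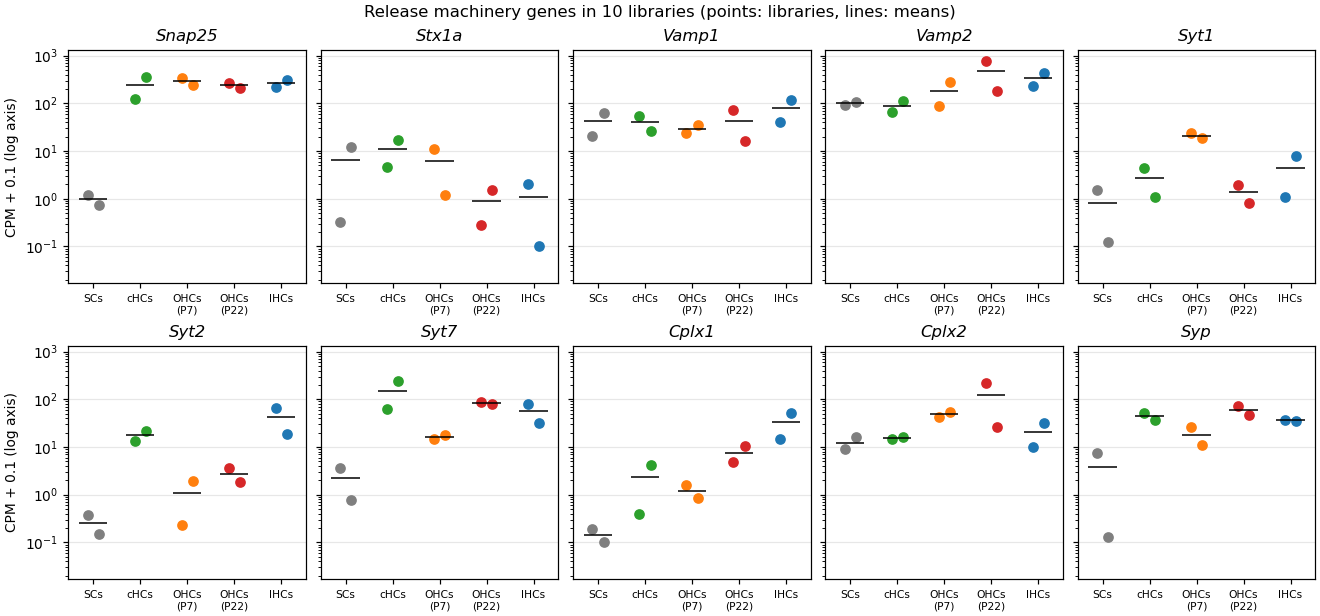
Level of each of the 10 genes in each of the 10 libraries, as TMM-scaled CPM plus 0.1 on a log axis. Points are libraries and lines are arithmetic means of 2; *Snap25* is between 125 and 361 CPM in all 8 hair cell libraries and at or below 1.11 CPM in both SC libraries, while *Vamp1* and *Stx1a* overlap among cell types.

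The 2 vesicle SNARE genes were counted in every library, SCs included. *Vamp2* (chr11:68901992-68905886, plus strand), the synaptobrevin of most central synapses that also serves exocytosis in other cells, was at 93.9 and 108 CPM in SCs, 66.2 and 111 CPM in cHCs, 85.9 and 278 CPM in OHCs (P7), 790.3 and 180 CPM in OHCs (P22), and 229 and 436 CPM in IHCs. The libraries of the mature native hair cells were all above those of SCs and cHCs, but the difference did not pass the test. It was 2.45 ± 0.79 for OHCs (P22) minus cHCs and 2.26 ± 0.78 for OHCs (P22) minus SCs, with edgeR FDRs of 0.130 and 0.102. Without OHC (P22) library f22 both passed, at 3.15 and 2.96 (edgeR FDRs of 0.0358 and 0.0275). Without library m21, which stood apart, they were 0.98 and 0.76 (edgeR FDRs of 0.735 and 0.674).

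*Vamp1* (chr6:125165569-125194561, plus strand), a second synaptobrevin found mostly in brainstem, spinal cord and motor endings, showed no order by cell type. Its levels were 20.3 and 63.1 CPM in SCs, 53.6 and 26.2 CPM in cHCs, 23.3 and 35.4 CPM in OHCs (P7), 70.9 and 16.0 CPM in OHCs (P22), and 40.7 and 118 CPM in IHCs. The difference between cHCs and SCs was -0.06 (95% interval -2.18 to 2.05), and the joint test gave an edgeR FDR of 0.781.

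Among the calcium sensors, *Syt7* was the one that passed the test. *Syt7* (chr19:10463580-10527671, plus strand) encodes a synaptotagmin of high calcium affinity known for slow, asynchronous release and vesicle replenishment. It was at 3.51 and 0.664 CPM in SCs, 61.7 and 238 CPM in cHCs, 14.4 and 17.3 CPM in OHCs (P7), 85.9 and 80.1 CPM in OHCs (P22), and 80.6 and 31.3 CPM in IHCs. All 8 hair cell libraries lay above both SC libraries, and both cHC libraries lay above both OHC (P7) libraries. *Syt7* rose against SCs by 6.17 ± 1.15 in cHCs, 5.32 ± 1.11 in OHCs (P22) and 4.75 ± 1.08 in IHCs, with edgeR FDRs of 0.0199, 0.0142 and 0.0436.

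In OHCs (P7), *Syt7* differed from SCs by 2.93 ± 0.99 (edgeR FDR of 0.150) and from cHCs by -3.24 ± 1.0 (edgeR FDR of 0.272), and neither passed. The calls of *Syt7* were less stable than those of *Snap25*. All 3 were lost with limma-voom (FDRs of 0.0521, 0.0638 and 0.126) and when SC library 11 was left out (FDRs of 0.0773, 0.0559 and 0.150), and in fits of just the cell types compared (FDRs of 0.0887, 0.0524 and 0.114). That of cHCs was also lost without cHC library 16 (log2 fold change of 4.89, FDR of 0.10) and that of IHCs without IHC library m74 (3.91, FDR of 0.130) and with RLE size factors (FDR of 0.0508). Exons of *Syt7* share 384 bases with the antisense gene *Gm17289*, and a strand setting of the counting is not given in the sources used here.

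*Syt1* and *Syt2* encode the fast sensors of synchronous release, and their highest levels were in different cell types. *Syt1* (chr10:107934706-108448038, minus strand), the sensor of most forebrain synapses, was at 1.42 and 0.0266 CPM in SCs, 4.21 and 0.991 CPM in cHCs, 23.6 and 18.4 CPM in OHCs (P7), 1.85 and 0.716 CPM in OHCs (P22), and 1.01 and 7.73 CPM in IHCs. Both OHC (P7) libraries lay above the other 8. The difference of OHCs (P22) from OHCs (P7) was -4.04 ± 2.15 (edgeR FDR of 0.418) and did not pass.

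*Syt2* (chr1:136605877-136649726, plus strand), the sensor of fast hindbrain and motor synapses, was at 0.267 and 0.0531 CPM in SCs, 13.4 and 21.9 CPM in cHCs, 0.134 and 1.80 CPM in OHCs (P7), 3.53 and 1.77 CPM in OHCs (P22), and 64.6 and 18.2 CPM in IHCs. Both cHC and both IHC libraries were above all 4 OHC libraries. In the main edgeR fit the differences did not pass. They were 6.79 ± 1.90 for cHCs minus SCs (edgeR FDR of 0.123) and 8.02 ± 2.0 for IHCs minus SCs (edgeR FDR of 0.0655). OHCs (P7) minus cHCs gave -4.16 ± 1.67 (edgeR FDR of 0.414) and IHCs minus OHCs (P22) gave 3.97 ± 1.65 (edgeR FDR of 0.292). The 2 differences from SCs passed with limma-voom (FDRs of 0.0397 and 0.0222). Among alternatives in which every library kept its own sample, 3 of 16 called cHCs minus SCs and 5 of 15 called IHCs minus SCs. OHCs (P7) minus cHCs was called in 1 of 16 and IHCs minus OHCs (P22) in 1 of 15.

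**Figure D2:**
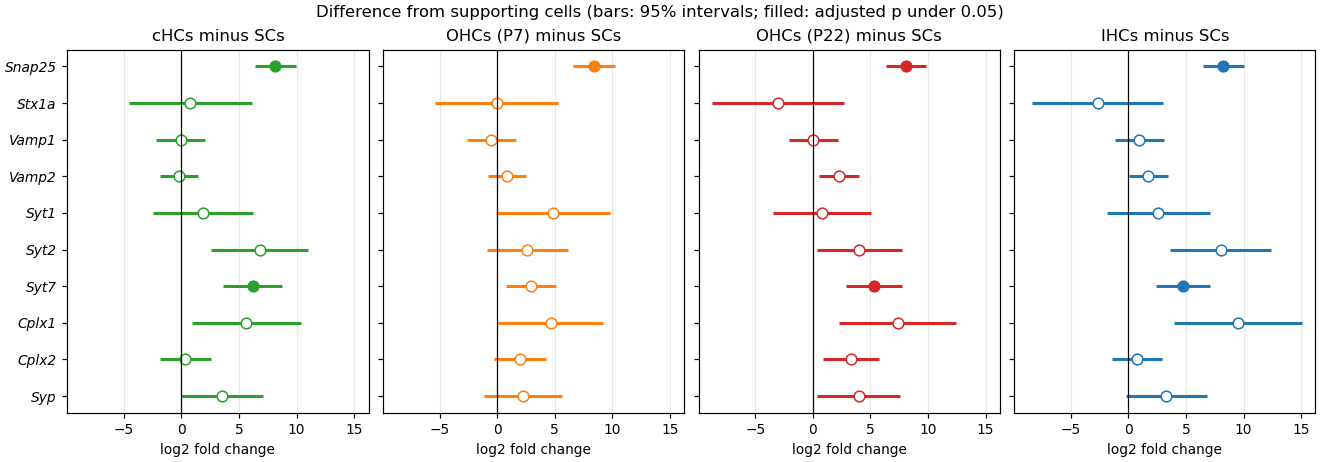
Log2 fold change of each gene against SCs in cHCs, OHCs (P7), OHCs (P22) and IHCs, in 4 panels with a common axis. Bars are 95% intervals of the edgeR fit and filled points have an FDR under 0.05; *Snap25* is filled in all 4 panels and *Syt7* in those of cHCs, OHCs (P22) and IHCs, while the bars of *Stx1a* span more than 10 log2 units.

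The 2 complexin genes differed in where they were counted at all. Promoter windows of RefSeq (build GRCm38.p6, 250 bases before to 50 after the gene start) were held for 7 of the 10 members, in 9 windows, and not for *Snap25*, *Syt7* and *Vamp2*. The windows shown are those of the complexin pair and the upstream window of *Syt2*, because these genes contrast in the SCs, where *Cplx1* and *Syt2* were near 0 and *Cplx2* was not. The other *Syt2* window, at chr1:134709050-134709349, is not shown. Which *Syt2* window holds the start of the gene as counted was not tested. Capitals mark the letters CAGCTG, an E-box of the kind that basic helix-loop-helix factors such as Atoh1 bind, which reads the same on both strands.
Cplx1, chr5:108549978-108550277, minus strand: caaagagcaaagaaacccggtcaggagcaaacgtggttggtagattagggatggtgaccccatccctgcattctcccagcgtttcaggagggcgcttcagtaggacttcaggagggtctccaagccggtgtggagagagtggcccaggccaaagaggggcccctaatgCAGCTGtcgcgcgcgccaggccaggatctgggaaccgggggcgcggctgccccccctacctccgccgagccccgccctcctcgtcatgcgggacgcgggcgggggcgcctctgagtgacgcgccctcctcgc
Cplx2, chr13:54302306-54302605, plus strand: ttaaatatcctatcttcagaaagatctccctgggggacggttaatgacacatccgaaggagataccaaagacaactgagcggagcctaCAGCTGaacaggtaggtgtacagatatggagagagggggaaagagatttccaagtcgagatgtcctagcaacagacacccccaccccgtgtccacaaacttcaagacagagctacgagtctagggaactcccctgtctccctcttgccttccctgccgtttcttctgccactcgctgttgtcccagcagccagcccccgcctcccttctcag
Syt2, chr1:134646362-134646661, plus strand: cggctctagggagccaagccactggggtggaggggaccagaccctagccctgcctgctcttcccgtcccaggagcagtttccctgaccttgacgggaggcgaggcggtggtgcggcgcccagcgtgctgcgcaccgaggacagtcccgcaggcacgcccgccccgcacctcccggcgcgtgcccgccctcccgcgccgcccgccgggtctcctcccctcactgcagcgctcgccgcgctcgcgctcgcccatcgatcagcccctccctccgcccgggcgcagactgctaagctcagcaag
The windows of *Cplx1*, *Cplx2* and *Stx1a* and 1 of the 2 *Syt1* windows held these letters, 4 of 9, and 16.3% of all 32851 windows did. CAGATG, searched on both strands, was in none of the 9 and in 17.2% of all. The dinucleotide CG occurred 24 times in the *Cplx1* window and 9 times in the *Cplx2* window, against a median of 7 over all windows. It occurred 34 times in the *Syt2* window shown and 28 times in the other *Syt2* window. A match describes these letters and is not a binding site.

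*Cplx1* (chr5:108947573-108979043, minus strand, mm9) encodes the complexin that acts at fast synapses of brainstem and retinal neurons among others. It had 2 counts in one SC library and 0 in the other, 7 and 163 counts in cHCs, 22 and 28 in OHCs (P7), 53 and 244 in OHCs (P22), and 443 and 1487 in IHCs. In CPM the hair cell libraries ran from 0.298 in cHC library 13 to 51.1 in IHC library m75, and all 8 lay above both SC libraries. The ratio of summed counts per scaled library to that in SCs was 81.3 in cHCs (95% interval 22.2 to 676), 29.2 in OHCs (P7) (7.67 to 248), 255 in OHCs (P22) (69.9 to 2112) and 987 in IHCs (273 to 8159), intervals that cover counting error only. The value in cHCs rests on library 16, which holds 163 of the counts. The edgeR difference of cHCs from SCs was 2.75 without cHC library 16 (FDR of 0.802) and 6.53 without cHC library 13 (FDR of 0.235). In the main edgeR fit the difference from SCs did not pass in any hair cell type. The edgeR FDRs were 0.270 in cHCs, 0.260 in OHCs (P7), 0.0782 in OHCs (P22) and 0.0808 in IHCs. Those in OHCs (P22) and IHCs passed with limma-voom (FDRs of 0.0357 and 0.0131). Among alternatives in which every library kept its own sample, the difference was called in 1 of 15 for cHCs and 1 of 16 for OHCs (P7). It was called in 3 of 15 for OHCs (P22) and 3 of 15 for IHCs.

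*Cplx2* (chr13:54472713-54485278, plus strand, mm9), the complexin widespread in forebrain that also serves secretory cells, was at 8.84 and 15.7 CPM in SCs, 14.9 and 16.0 CPM in cHCs, 43.3 and 54.5 CPM in OHCs (P7), 219 and 26.2 CPM in OHCs (P22), and 9.77 and 31.3 CPM in IHCs. All 4 OHC libraries lay above the SC and cHC libraries. The difference did not pass: OHCs (P22) minus SCs gave 3.32 ± 1.09 (edgeR FDR of 0.0889) and OHCs (P22) minus cHCs gave 2.99 ± 1.07 (edgeR FDR of 0.172). The difference between cHCs and SCs was 0.33 (95% interval -1.87 to 2.53). Without OHC (P22) library f22, which leaves library m21 with its 219 CPM, OHCs (P22) minus SCs passed at 4.15 (edgeR FDR of 0.0250). Without library m21 the differences of OHCs (P22) were 1.03 from SCs and 0.72 from cHCs (edgeR FDRs of 0.733 and 0.895).

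*Syp* (chrX:7215597-7230382, plus strand) was at 7.51 and 0.0266 CPM in SCs, 51.7 and 35.8 CPM in cHCs, 25.6 and 10.7 CPM in OHCs (P7), 72.0 and 46.8 CPM in OHCs (P22), and 37.4 and 35.6 CPM in IHCs. All 8 hair cell libraries lay above both SC libraries, but the 2 SC libraries lay far apart. The differences from SCs were 3.54 ± 1.61 in cHCs, 2.27 ± 1.53 in OHCs (P7), 3.98 ± 1.65 in OHCs (P22) and 3.28 ± 1.59 in IHCs, with edgeR FDRs of 0.334, 0.444, 0.160 and 0.313. SC library 12 decided these values. Without it all 4 passed, at 10.46, 9.18, 10.89 and 10.19 (edgeR FDRs of 0.0179, 0.0196, 0.00529 and 0.0134), against the single count left in SC library 11. Exons of *Syp* share 875 bases with the antisense gene *Gm14703*.

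The joint test asked of each gene whether any of the 5 cell types differed. It called *Snap25* and *Syt7* (edgeR FDRs of 0.00138 and 0.0318), 2 of 10 members, where 7.81% of all genes tested were called. The next members were *Syt2* (edgeR FDR of 0.0619) and *Cplx1* (0.0973), and the other 6 were at 0.147 or more. Leaving out cHC library 16 lost *Syt7* (FDR of 0.0624), as did limma-voom (0.104). DESeq2 called 5 members and 26% of all genes, and the fit without the filter on low counts 6 members and 17.4% of all genes.

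Against SCs, edgeR called 2 of 10 members higher in cHCs, 1 in OHCs (P7), 2 in OHCs (P22) and 2 in IHCs, and none lower. The shares of all genes tested that were called higher were 1.75%, 2.56%, 4.01% and 2.23%. The median log2 fold change of the 10 members was 2.69, 2.45, 3.65 and 2.94 in these comparisons, and that of all genes tested was between 0 and 0.03. In 4 of 10 members (*Snap25*, *Syt7*, *Cplx1* and *Syp*) all 8 hair cell libraries lay above both SC libraries, as they did in 6.89% of all genes tested.

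Between hair cell types, edgeR called 0 of 10 members in each of the 5 comparisons made. The shares of all genes called in either direction were 0.343% for OHCs (P7) minus cHCs, 3.18% for OHCs (P22) minus cHCs, 0.924% for IHCs minus cHCs, 0.551% for OHCs (P22) minus OHCs (P7) and 1.46% for IHCs minus OHCs (P22). The numbers of members with an unadjusted p under 0.05 were 2, 2, 1, 1 and 2. With DESeq2, 2 members each were called in the first 2 comparisons, 0 in the next 2 and 1 in the last, where 6.65%, 16.1%, 8.16%, 9.66% and 12% of all genes were called. With limma-voom 0 members were called in all 5, where 2.24%, 5.51%, 4.37%, 0.651% and 1.77% of all genes were called. The comparisons against SCs share the SC libraries, and those against cHCs share the cHC libraries.

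Levels of different genes were compared per kilobase of exon, as TMM-scaled CPM divided by the union of a gene's exons. In SCs, *Vamp2* led with a mean of 26.6 CPM per kb, 70.9% of the sum over the 10 genes, and *Snap25* ranked 7 of 10 with 0.129 CPM per kb. In cHCs, *Snap25* led in both libraries with a mean of 35.8 CPM per kb, followed by *Vamp2* in library 13 and by *Syt7* in library 16. In OHCs (P22) and IHCs, *Vamp2* led in all 4 libraries with means of 127 and 87.4 CPM per kb. *Snap25* came second in 3 of them, and in OHC (P22) library m21 *Cplx2* came second with 44.5 CPM per kb against 39.8 for *Snap25*. The share of *Syt7* in the sum was 13% and 24.2% in the cHC libraries, 3.75% and 10.4% in the OHCs (P22), and 8.58% and 2.06% in the IHCs. These shares differed several-fold within a cell type, and they were not tested. The order in OHCs (P7) turned between libraries, with *Snap25* first in library 15 and *Vamp2* first in library 14. *Syt1* and *Syt2* did not exceed 3.41% of the sum in the mean of any cell type.

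**Figure D3:**
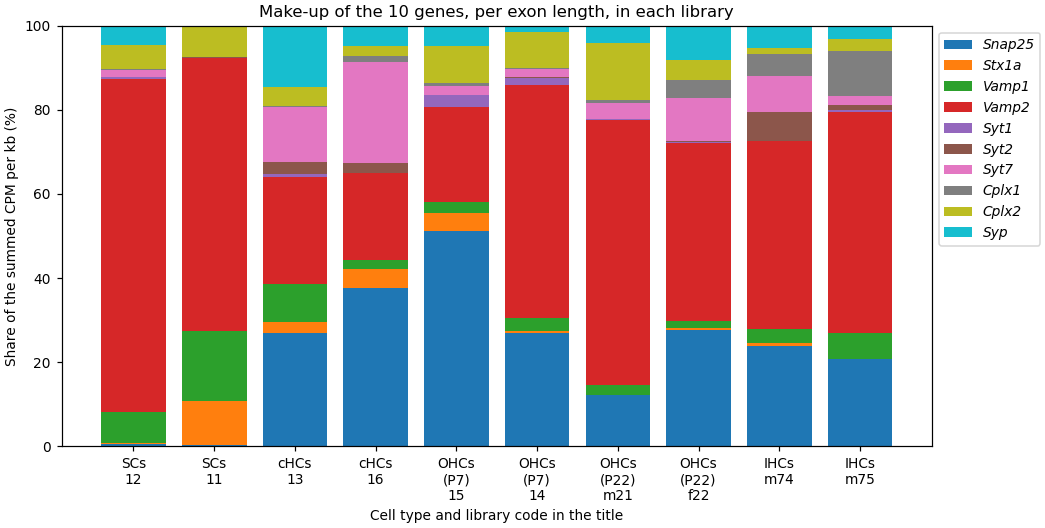
Share of each of the 10 genes in their summed CPM per kb of exon, in percent, with 1 bar per library and the library's number or code under each bar. *Vamp2* fills 65.1% and 79.0% of the SC bars, and *Syt7* is widest in cHC library 16.

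The other genes of the pathway were taken from lists of SNARE proteins, calcium sensors, regulators and vesicle proteins. Beside the counts given for these lists, the joint test called 7.81% of all genes tested. Among the other SNARE genes, *Stx7*, a syntaxin of late endosomes, passed the joint test. *Stx7* was at 141 and 183 CPM in SCs and at 3.44 and 10.2 CPM in OHCs (P22) (edgeR joint FDR of 0.0281, and 0.0716 without SC library 11).

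Of the 24 other synaptotagmins and C2 domain sensors, 16 were tested and 6 passed the joint test: *Otof*, *Rph3a*, *Syt13*, *Syt6*, *Syt9* and *Myof*. *Otof* was at 0.622 and 0.637 CPM in SCs, 279 and 161 CPM in cHCs, 1036 and 1145 CPM in OHCs (P7), 338 and 490.2 CPM in OHCs (P22), and 5010 and 4216 CPM in IHCs. It was called higher than in SCs in all 4 hair cell types, and higher in OHCs (P7) and in IHCs than in cHCs. The call of OHCs (P7) against cHCs (log2 fold change of 2.31, edgeR FDR of 0.0454) was lost with RLE size factors, in the fit of only those cell types and within libraries 11 to 16 alone. It was also lost without cHC library 16 (edgeR FDR of 0.173), OHC (P7) library 14 (0.169) or OHC (P7) library 15 (0.101). The joint call of *Syt9* was lost without SC library 12 (edgeR FDR of 0.0953). *Syt6* was at 79.6 and 150.4 CPM in OHCs (P7), and at 0 and 0.126 CPM in OHCs (P22), with the cHCs at 21.4 and 6.88 CPM and the IHCs at 25.1 and 13.8 CPM between them (edgeR joint FDR of 0.00314).

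*Syt13* and *Rph3a* were high in the cHCs and low in every other library. *Syt13*, an atypical synaptotagmin that lacks the residues for calcium binding, was at 121 and 259 CPM in cHCs, 5.02 and 2.66 CPM in SCs, and 0.0421 to 3.68 CPM in native hair cells. It fell by 10.40 ± 1.62 in OHCs (P22) against cHCs (edgeR FDR of 0.00877). Its difference of cHCs from SCs was 5.63 ± 1.29 (edgeR FDR of 0.0561) and passed with limma-voom (FDR of 0.0245). *Rph3a*, encoding rabphilin, a Rab3 effector with C2 domains that binds SNAP25, was at 81.9 and 173 CPM in cHCs and at most 1.5 CPM in the other 8 libraries. It rose by 9.78 ± 1.42 in cHCs against SCs and fell by 6.98 ± 1.26 in OHCs (P22) against cHCs, with edgeR FDRs of 0.00414 and 0.0143. Without cHC library 16 these FDRs were 0.0939 and 0.153, and without OHC (P22) library m21 the second was 0.0523.

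Of the 26 regulators of SNARE priming, tethering and disassembly, 25 were tested and 5 passed the joint test: *Rab3b*, *Stxbp2*, *Stxbp4*, *Unc13b* and *Rab27b*. That of *Rab27b* was lost whichever library was left out, with edgeR FDRs of 0.0519 to 0.140. *Rab3b*, a vesicle GTPase of the Rab3 family, was at 54.6 and 240 CPM in cHCs and at most 3.36 CPM elsewhere. It rose by 9.38 ± 1.73 in cHCs against SCs and fell by 9.65 ± 1.77 in OHCs (P22) against cHCs (edgeR FDRs of 0.0184 and 0.0150, and 0.288 and 0.151 without cHC library 16). Without SC library 12 the first was at an FDR of 0.0825. *Stxbp2*, encoding Munc18-2, was at 543 and 336 CPM in OHCs (P22) and at 16.8 and 53.0 CPM in IHCs, and its joint call was lost without OHC (P22) library m21 (edgeR FDR of 0.0740). *Unc13b*, encoding the priming factor Munc13-2, was at 185 and 52.5 CPM in SCs and at 0.176 and 0 CPM in OHCs (P22), and its joint call was lost without SC library 12 (edgeR FDR of 0.0858) or OHC (P22) library f22 (0.0599).

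Of the 26 other synaptic vesicle genes, 22 were tested and *Snap91* passed the joint test. It encodes AP180, a clathrin adaptor of vesicle recycling. *Snap91* was at 0.178 and 0.212 CPM in SCs, 19.3 and 26.1 CPM in cHCs, 208 and 293 CPM in OHCs (P7), 588 and 608 CPM in OHCs (P22), and 469 and 325 CPM in IHCs. The groups of SCs, cHCs and native hair cells did not overlap. It rose against SCs by 6.82 ± 0.61 in cHCs and was higher than in cHCs by 3.46 ± 0.50 in OHCs (P7), 4.72 ± 0.53 in OHCs (P22) and 4.13 ± 0.52 in IHCs, with edgeR FDRs of 0.000139, 0.0223, 0.00214 and 0.00594. In fits of just the cell types compared, the first 2 of these did not pass (edgeR FDRs of 0.132 and 0.0506). The call of OHCs (P7) against cHCs was also lost without cHC library 13 (edgeR FDR of 0.101), cHC library 16 (0.0704) or OHC (P7) library 14 (0.112), and within libraries 11 to 16 alone (0.0884). The other complexin genes, *Cplx3* and *Cplx4*, summed to at most 0.610 CPM in any library and were not tested.

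**Figure D4:**
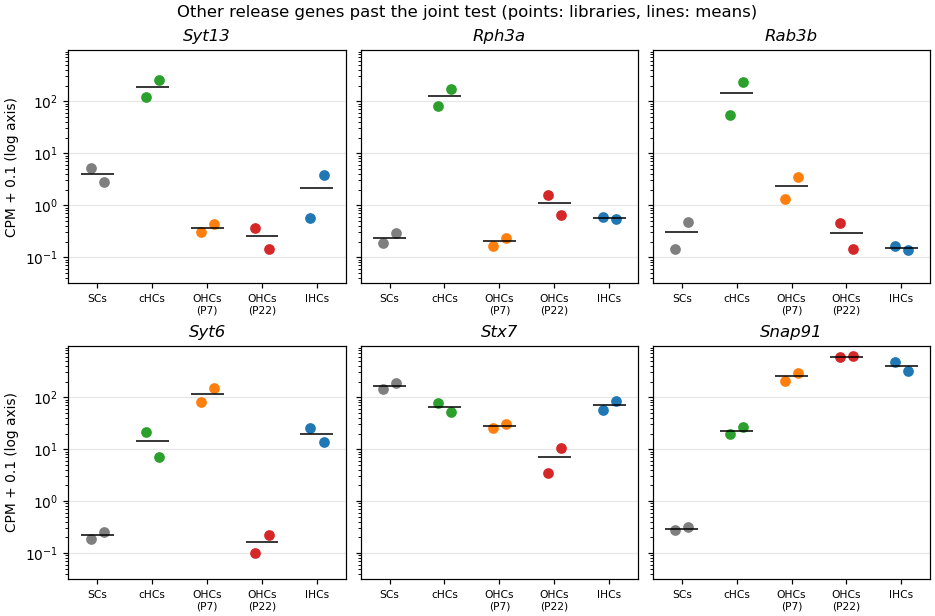
Level of 6 further release genes that passed the joint test, as TMM-scaled CPM plus 0.1 on a log axis. Points are libraries and lines are arithmetic means of 2; *Syt13*, *Rph3a* and *Rab3b* stand at 54.6 CPM or more in the cHC libraries and at 5.02 CPM or less in all others, *Syt6* is highest in OHCs (P7), *Stx7* is highest in SCs, and *Snap91* is lower in cHCs than in native hair cells.

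Of the 11 ribbon and active zone genes, set beside the members for contrast, all were tested and 6 passed the joint test. It called 2 of the 10 members and 7.81% of all genes tested. *Otof* is in this list and among the C2 domain sensors above. In cHCs against SCs, 4 of the 11 were called higher (*Otof*, *Cacnb2*, *Rims2* and *Rimbp2*), and 6 of 11 were in each native hair cell type. Of all genes tested, 1.75% were called higher in cHCs, 2.56% in OHCs (P7), 4.01% in OHCs (P22) and 2.23% in IHCs. The call of *Rimbp2* in cHCs (edgeR FDR of 0.0189) was lost without SC library 11 (0.0773) or SC library 12 (0.0646), within libraries 11 to 16 alone (0.0730) and in the fit of just those cell types (0.142), as was that of *Cacnb2* in the last of these (0.0684). Their median log2 fold change in cHCs against SCs was 4.57, beside 2.69 in the members. The difference between the 2 lists was not tested.

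The genes whose levels were most like those of a member were sought by Pearson's r of log2 CPM over the 10 libraries, among all genes tested. For *Snap25* they were *Scg3*, a secretogranin of dense-core granules, and *Pou4f3*, a transcription factor of hair cells, with r of 0.991 and 0.989. *Scg3* did not exceed 0.239 CPM in SCs and was at 53.8 CPM or more in hair cells. For *Syt7*, *Mast1*, a kinase gene, had an r of 0.946. The 10 libraries come from 5 cell types and are not 10 independent points.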

How the data were processed

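The members and gene lists were chosen with earlier results of these data known. RNA of handpicked cells was amplified by single primer isothermal amplification, mapped to mm9 (processing notes: CASAVA 1.7, STAR, BWA, HTSeq), and the authors deposited raw counts per gene symbol, without normalization. In 4 of 10 records the attached file held another sample's counts. Each file was given to the library whose column in the study's CPM table was a constant multiple of its counts. The study calls the 2 libraries of a cell type biological duplicates, without saying whether they share animals, and p-values measure the spread between these samples.

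Counts were tested with edgeR 4.0.16 (R 4.3.3) by quasi-likelihood F-tests, TMM and filterByExpr, in 1 model of 10 libraries, with Benjamini-Hochberg FDRs over 16891 genes (threshold 0.05). Levels are TMM-scaled CPM. Exon lengths and mm9 coordinates came from GENCODE vM1. Named were all members, up to 4 genes of each further list by joint p, and the 2 genes most like each member called. Genes named beyond these were chosen after their values were seen. Some genes that this rule names are not reported here. Alternatives included DESeq2 1.42.0 and limma 3.58.1 with voom, and figures used matplotlib 3.10.9. Tests were tried on data simulated with the dispersions that edgeR fitted, where a larger share of DESeq2's calls than of edgeR's was false. There edgeR recovered a smaller share of the changed genes than DESeq2 and missed most of them. Not passing is therefore not evidence of equal levels.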

Additional observations from a re-analysis of the deposited data

How the results depend on the processing

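Precision was limited by 2 libraries per cell type and, for members near 0 in SCs, by depth, since 3 counts came to 0.0740 to 0.200 CPM before scaling. Against SCs, *Snap25* was called under every alternative but the files as attached. DESeq2 called more members: 5 in the joint test, 4, 4, 7 and 4 against SCs in cHCs, OHCs (P7), OHCs (P22) and IHCs, 2 each in OHCs (P7) and OHCs (P22) against cHCs, and 1 in IHCs against OHCs (P22). The shares of all genes that DESeq2 called were 26% in the joint test and 10.5%, 15.9%, 24.6% and 13.6% against SCs. They were 6.65% and 16.1% in OHCs (P7) and OHCs (P22) against cHCs, and 12% in IHCs against OHCs (P22). Without the filter on low counts the joint test called 6 members, OHCs (P7), OHCs (P22) and IHCs against SCs 2, 6 and 4, and OHCs (P7) and OHCs (P22) against cHCs 1 each, and that fit also called 3 in cHCs against SCs. In the same order, 17.4%, 6.42%, 10.8%, 5.21%, 2.38%, 6.79% and 4.07% of all genes were called. With limma-voom 3 members were called in the joint test, and 2, 1, 3 and 3 against SCs in cHCs, OHCs (P7), OHCs (P22) and IHCs. Of all genes, limma-voom called 13.5% in the joint test and 6.31%, 6.94%, 11.2% and 6.23% in those comparisons. In fits of just the 2 cell types compared, 1 member was called in each of cHCs, OHCs (P22) and IHCs against SCs, and RLE size factors called 1 in IHCs. The shares of all genes called were 1.38%, 7.74% and 2.35% in those fits, and 2.49% in IHCs with RLE size factors. With the files as attached, in which 4 records hold another sample's counts, 0 members were called in the joint test and in the 4 comparisons against SCs. Of all genes, 0% were called in these tests. The cause of the other changes was not tested.

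Leaving out each library in turn, which leaves 1 library in a cell type, changed the number of members called in the joint test. The number also changed in the comparisons against SCs and in OHCs (P22) against cHCs, and in none of the other 4. The joint test lost a member without cHC library 16. It gained at least 1 member without OHC (P22) library f22, without SC library 12 and without OHC (P7) library 14. The fit of libraries 11 to 16 alone was added after seeing the data. It called 2, 1 and 0 members in cHCs and OHCs (P7) against SCs and in OHCs (P7) against cHCs. The shares of all genes called there were 2.08%, 3.35% and 0.147%. No paired analysis was possible because no replicate number is shared between cell types.

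Differences of *Snap25* between hair cell types changed sign under some alternatives, and none of them was called. With RLE factors or DESeq2, OHCs (P22) minus cHCs was 0.075 and IHCs minus OHCs (P22) was -0.0025. Leaving out a library gave -0.29 to 1.24 in OHCs (P7) minus cHCs, with the low end without cHC library 13 and -0.0058 without OHC (P7) library 15. It gave -0.60 to 0.93 in OHCs (P22) minus cHCs, with the high end without cHC library 16 and 0.15 without OHC (P22) library f22. It gave -0.46 to 1.08 in IHCs minus cHCs, with the low end without cHC library 13 and -0.15 without IHC library m75. It gave -0.12 to 0.37 in IHCs minus OHCs (P22), with the low end without IHC library m75 and -0.03 without OHC (P22) library f22. For *Syt7*, OHCs (P22) minus cHCs ran from -1.52 without cHC library 13 to 0.42 without cHC library 16.

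With the files as attached, more differences changed sign. In cHCs minus SCs they were -2.11 for *Syt7*, -6.19 for *Syt2*, -1.21 for *Syp*, -5.44 for *Syt13*, -8.22 for *Rph3a* and -5.12 for *Rab3b*. In OHCs (P7) they were 4.08 for *Syt7* and 6.98 for *Syt2* against cHCs and -0.35 for *Syp* against SCs. In OHCs (P22) they were 0.45 for *Snap25*, 3.46 for *Syt7* and 2.88 for *Rph3a* against cHCs, -1.37 for *Syt2* against SCs and -0.62 for *Syt7* against OHCs (P7), and IHCs minus cHCs was 2.89 for *Syt7*.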
